A study of Mus musculus with 10 samples.

Results

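The genes of MHC class I antigen presentation were followed in RNA from mouse microglia, the resident macrophages of the brain. The set held 10 genes chosen by name from the 24453 gene symbols of the expression table: the heavy chains H2-K1, H2-D1, H2-T23 and H2-M3, the light chain B2m, the peptide transporter subunits Tap1 and Tap2, the loading factor Tapbp, and the immunoproteasome subunits Psmb8 and Psmb9. The choice was made with earlier results of these data known. All 10 were in the table, and 5 of them (H2-K1, H2-D1, B2m, Tapbp and H2-T23) reached 10 RPM in at least 2 libraries and were tested. RPM is the number of reads of a gene scaled to a common library total. The other 5 were below that level and are given as values.

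Microglia had been pulled from dissociated brains with magnetic beads, and the 10 libraries fell into 4 groups. All mice were untreated and of the strain C57bl6. In the ageing experiment, 3 libraries came from mice of 15 months (aged) and 3 from mice of 10 weeks (young). In the Rab7 experiment, 2 libraries carried the label Rab7 deltaMG and 2 the label Rab7 Control, all from mice of 3 months, and the series describes the former as null mutants for Rab7, a small GTPase of late endosomes. How the mutation was made, whether a Cre driver was used and whether animals were pooled is not given in the sources used here. The labels do not say that replicates were separate animals. The p-values therefore set group differences only against the scatter between these libraries, which may be technical in part.

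A class I molecule is a heavy chain held together with B2m and a short peptide. The peptides are cut from cytosolic proteins by the proteasome, carried into the endoplasmic reticulum by the TAP transporter, trimmed there, and loaded onto the heavy chain with the help of tapasin, the product of Tapbp. The finished complex is shown at the cell surface to CD8 T cells and to receptors of natural killer cells. Resting microglia are known for low class I levels. Interferons raise the genes of the whole pathway through factors that bind short elements upstream of the genes. The classical heavy chain promoters hold an interferon-responsive element and, separately, a kappa B element.

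In the annotation used (GENCODE M21, GRCm38), 9 of the 10 genes lie in the MHC region of chromosome 17 and B2m lies on chromosome 2. H2-K1 spans chr17:33996017-34000347 on the minus strand, H2-D1 chr17:35262730-35267499 on the plus strand and B2m chr2:122147686-122153083 on the plus strand. Tap1 (chr17:34187553-34197225, plus) and Psmb9 (chr17:34181987-34187764, minus) lie head to head, with RefSeq start sites 226 bases apart, and Psmb8 (chr17:34197721-34201454, plus) and Tap2 (chr17:34203527-34216321, plus) follow. Tapbp lies at chr17:33915899-33929292 (plus), H2-T23 at chr17:36029773-36032855 (minus) and H2-M3 at chr17:37270220-37274484 (plus).

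The bases in front of 3 genes are shown because they hold the elements just named and because these genes had separate ranges between young and aged libraries. They come from the RefSeq promoter table (GRCm38.p6), which matched 9 of the 10 genes, all but Tap2. Each is read 5′ to 3′ on the strand of its gene and was ended before the first annotated exon. H2-K1 is chr17:34000348-34000597 (minus), H2-M3 is chr17:37269984-37270219 (plus) and B2m is chr2:122147437-122147685 (plus). Capitals mark matches to the motifs described next.
H2-K1: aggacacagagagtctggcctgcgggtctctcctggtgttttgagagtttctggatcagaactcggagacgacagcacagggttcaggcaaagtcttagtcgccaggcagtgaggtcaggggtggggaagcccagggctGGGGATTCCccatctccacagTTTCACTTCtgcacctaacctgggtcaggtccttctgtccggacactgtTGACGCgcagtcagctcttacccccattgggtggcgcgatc
H2-M3: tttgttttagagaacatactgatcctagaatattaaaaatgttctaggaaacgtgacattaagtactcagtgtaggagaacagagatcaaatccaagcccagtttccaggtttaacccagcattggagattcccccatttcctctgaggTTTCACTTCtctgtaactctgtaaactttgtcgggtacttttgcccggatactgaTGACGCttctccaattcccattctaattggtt
B2m: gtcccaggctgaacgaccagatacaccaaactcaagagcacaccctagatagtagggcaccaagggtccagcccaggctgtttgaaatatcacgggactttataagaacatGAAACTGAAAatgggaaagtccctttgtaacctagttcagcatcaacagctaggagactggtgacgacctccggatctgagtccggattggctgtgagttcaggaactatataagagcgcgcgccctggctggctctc

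Motifs were sought on both strands of windows from 250 bases before to 50 after each RefSeq start, among the 9 matched genes and all 32851 promoters of the table. The kappa B type GGGNNTTCC was found in H2-K1 and H2-D1 and in 5.82% of all promoters. TGACGC, the X2 box type, was found in H2-K1, H2-D1 and H2-M3 and in 7.40% of all promoters. The interferon-stimulated response element core, written GAAA, any 2 bases, GAAA, was found in B2m and H2-T23 and in 3.44% of all promoters. A shorter form, GAANNGAAA, was chosen after the sequences were seen. It was found on the opposite strand in H2-K1, H2-D1 and H2-M3 and in 7.52% of all promoters, where the longer core was not matched. None of the 4 motifs was matched in the windows of Tap1, Tapbp, Psmb8 or Psmb9, which says only that these letters are not in those windows. A match is a run of letters and was not tested as a bound site.

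The windows of H2-K1 and H2-D1 were near copies of each other, with 206 of 227 aligned bases identical (90.8%). Those of H2-D1 and H2-M3 shared 71.9% of their aligned bases and those of H2-K1 and H2-M3 shared 68.7%. The 30 bases that end with the interferon-type match are set side by side because the ratio of H2-D1 to H2-K1 is followed below. They lie at chr17:34000429-34000458 (minus) for H2-K1, chr17:35262923-35262952 (plus) for H2-D1 and chr17:37270112-37270141 (plus) for H2-M3. H2-K1 and H2-D1 were identical at 29 of the 30 bases, and H2-M3 was identical to H2-K1 at 14. The H2-D1 stretch lies within the first exon of a longer annotated transcript.
H2-K1: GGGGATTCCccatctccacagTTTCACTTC
H2-D1: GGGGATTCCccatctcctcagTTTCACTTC
H2-M3: attcccccatttcctctgaggTTTCACTTC

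The libraries rested on 6098268 to 9907451 reads behind the scaling, and the listed genes held 18.7% to 23.5% of them. B2m was covered by 3759 to 10401 reads per library, H2-D1 by 301 to 1039 and H2-K1 by 345 to 728, whereas Psmb9 had 18 to 60, Tap1 20 to 48 and Tap2 7 to 22. Rab7 did not check the labels of the Rab7 experiment: it was at 64.2 and 67.5 RPM in labelled control libraries and at 72.2 and 79.4 RPM in those labelled deltaMG (log2 fold change 0.20, limma adjusted p = 0.668; -0.19 with a neutrophil score as covariate). Each direction between these groups therefore rests on the labels. Microglial markers (12 genes, among them P2ry12 and Tmem119) summed to 6038 to 6786 RPM in young and 3939 to 4403 in aged libraries, which were apart. They summed to 5733 to 6135 RPM in labelled control and 5076 to 6557 in labelled deltaMG libraries. T and NK cell markers summed to at most 8.13 RPM, and the T cell receptor subunit Cd3g was at the table's constant in all 10. Neutrophil markers (16 genes) summed to 602 to 1570 RPM in young, 1084 to 4821 in aged, 501 to 750 in labelled control and 1315 to 1983 in labelled deltaMG libraries. In aged against young libraries, 7 of 12 microglial markers were called lower, and 2 of 14 tested neutrophil, 4 of 7 tested monocyte and 1 of 2 tested border macrophage markers higher. Over all tested genes 2.99% were called lower and 3.16% higher. Monocyte sums were 84.2 to 222 RPM in young and 198 to 835 RPM in aged libraries, and border macrophage sums 27.3 to 32.1 and 33.9 to 86.5 RPM. In the libraries labelled deltaMG, 2 of 14 tested neutrophil and 1 of 12 microglial markers were called higher, against 1.2% of all tested genes. Monocyte sums were 64.9 to 104 RPM in labelled control and 186 to 251 RPM in labelled deltaMG libraries. Border macrophage sums were 39.1 to 48.8 and 50.1 to 50.9 RPM. Both sums were apart in the Rab7 experiment, where 51.8% of tested genes were apart as well. Of these markers, 0 of 7 tested monocyte and 0 of 2 tested border macrophage genes were called there. In ageing the border macrophage sums were apart and the monocyte sums overlapped. Beyond the neutrophil score used below, the part of these cells in the class I values was not tested. Xist was at 1715 to 1771 RPM in young and at 0.127 to 0.940 RPM in aged libraries, and the Y-linked sum was at most 0.288 RPM in young and 35.7 to 48.7 RPM in aged libraries, so age and sex cannot be told apart. Each library of the Rab7 experiment held both kinds of transcript. Y-linked sums were 19.3 to 25.8 RPM in labelled control and 9.11 to 20.3 RPM in labelled deltaMG libraries, and Xist was at 924 to 1410 and 1171 to 1562 RPM. The part of sex in this comparison was not tested.

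Per kilobase of merged exons, the scale on which genes can be compared, B2m had the highest level of the set in every group. In young libraries it was at 722 RPM per kilobase ± 21.5 (SD, n = 3). H2-D1 followed at 21.2 ± 3.89 and H2-K1 at 18.8 ± 1.65 RPM per kilobase (SD, n = 3 each), and these neighbours overlapped. Tapbp was at 6.14 ± 0.938 and apart from both its neighbours in the order. H2-T23 at 2.90, H2-M3 at 2.59 and Psmb8 at 1.82 RPM per kilobase came next, with overlap between H2-T23 and H2-M3 and between H2-M3 and Psmb8. Psmb9 at 0.966, Tap1 at 0.931 and Tap2 at 0.631 RPM per kilobase were lowest, each overlapping the next. In the other 3 groups H2-M3 stood above H2-T23, with overlapping levels in each. Divided by the longest transcript instead, H2-K1 stood above H2-D1 in young libraries, at 29.5 and 25.999 RPM per kilobase.

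**Figure D1:**
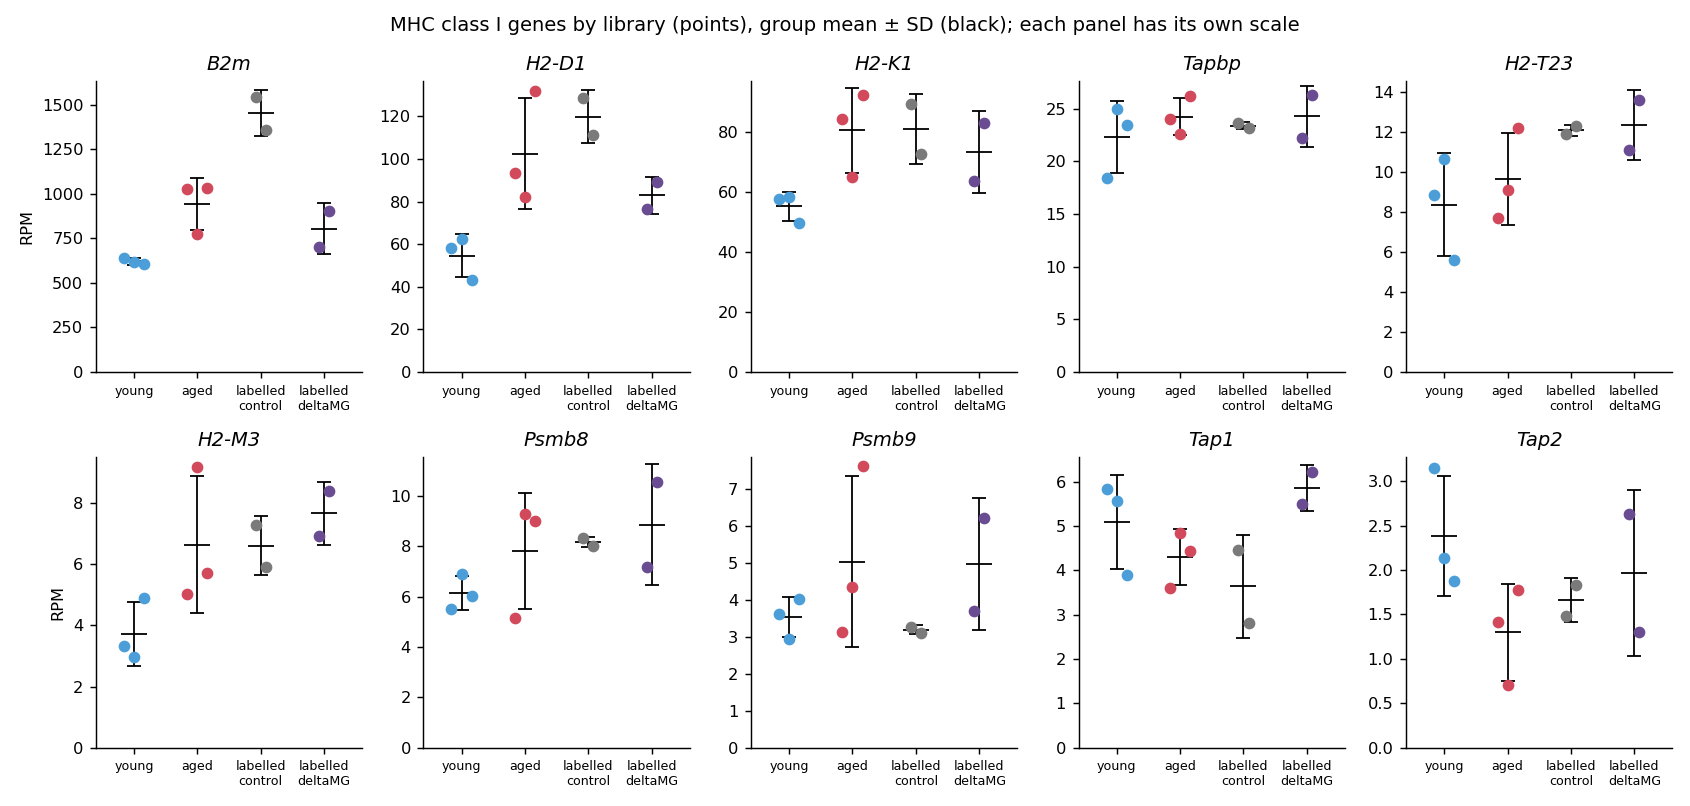
Level in RPM (vertical axis, a separate scale in each panel, starting at 0) of the 10 class I genes in each of the 10 libraries by group; points are libraries and black marks are the group mean ± SD. B2m and H2-D1 points of aged libraries lie above all young points, and those of the libraries labelled deltaMG lie below both labelled control points.

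The first comparison asked how these genes differ between aged and young mice. H2-D1 and B2m, a classical heavy chain and the common light chain, were higher in aged libraries, and no tested member was called lower. H2-K1 had a smaller difference in the same direction that missed the threshold, and Tapbp and H2-T23 were not called. The 2 of 5 tested members called higher stand beside a background in which limma called 6.14% of all 4151 tested genes, 3.16% higher and 2.99% lower, at an adjusted p under 0.05. These 255 genes became 96, 160 and 126 without young replicate 1, 2 and 3, and 151, 422 and 121 without aged replicate 1, 2 and 3. They became 157 and 160 without labelled control replicate 1 and 2 of the other experiment, which share the estimate of the spread. The median log2 fold change was 0.52 over the 5 tested members and 0.31 over all 10, against -0.048 over all tested genes. Because 1 was added to each RPM value before taking log2, changes of weakly expressed genes are understated. In bulk RNA, fewer cells of a type and less RNA per cell cannot be told apart.

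H2-D1, the heavy chain of the D molecule, was at 58.2, 62.5 and 43.3 RPM in young replicates 1 to 3 and at 93.2, 82.3 and 131.9 RPM in aged replicates 1 to 3. Every aged library lay above every young one, and aged replicate 3 was the highest. The group means were 54.7 RPM ± 10.0 and 102.5 RPM ± 26.1 (SD, n = 3 each), a 1.84-fold rise at a log2 fold change of 0.88 (standard error 0.18, limma adjusted p = 0.00949.) The call was kept when any 1 library was left out. The neutrophil, monocyte and border macrophage sums of the aged libraries were also highest in the same replicate 3, at 4821, 835 and 86.5 RPM. With a neutrophil marker score as covariate the log2 fold change was 0.56 and the call was kept (limma adjusted p = 0.0255). The part of the monocyte and border macrophage sums was not tested.

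B2m, without which heavy chains do not reach the surface in stable form, was at 641, 616 and 605 RPM in young libraries and at 1027, 776 and 1032 RPM in aged replicates 1 to 3. The young libraries were close together and all aged libraries were above them. The means were 621 RPM ± 18.5 and 945 RPM ± 146 (SD, n = 3 each), and the rise was 1.51-fold, at a log2 fold change of 0.59 (standard error 0.14, limma adjusted p = 0.0261.) This call was not kept when young replicate 1, 2 or 3 (limma adjusted p = 0.0757, 0.0770 and 0.0786) or aged replicate 1 or 3 (0.0873 and 0.0821) was left out. With the neutrophil score as covariate it was also lost, at a log2 fold change of 0.48 and a limma adjusted p of 0.0957.

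H2-K1, the heavy chain of the K molecule, was at 57.7, 58.4 and 49.7 RPM in young and at 84.3, 64.9 and 92.4 RPM in aged replicates 1 to 3. The ranges did not overlap, with aged replicate 2 nearest to the young libraries. The log2 fold change was 0.52 (95% interval 0.19 to 0.86), and the limma adjusted p of 0.0589 was above the threshold. It was 0.0129 without aged replicate 2, and it passed under 3 alternative scalings.

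Ranges of young and aged libraries were apart for 5 of the 10 members, among them 3 of the 5 tested ones. Over all tested genes this held for 23.9% (8.41% higher and 15.5% lower in aged libraries), and for 19.5% of the 10800 genes of at least 1 RPM in 2 libraries. The other 2 members with separate ranges had few reads. H2-M3, which presents formylated peptides, was at 3.31, 2.95 and 4.89 RPM in young and at 5.01, 9.19 and 5.71 RPM in aged libraries, a difference of 0.68 on the log2 scale. Its lowest aged value was close to its highest young value. Tap2 went the other way, with 3.15, 2.13 and 1.87 RPM in young and 1.41, 0.707 and 1.78 RPM in aged libraries, a difference of -0.57. In a fit of genes of at least 1 RPM, neither passed (limma adjusted p = 0.145 for H2-M3 and 0.339 for Tap2). The calls of that fit were H2-D1 and B2m, 2 of 10 members against 3.44% of all its genes.

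The rest of the loading machinery overlapped between ages. Tapbp was at 18.4, 24.9 and 23.5 RPM in young and at 23.97, 22.6 and 26.2 RPM in aged libraries, with a log2 fold change of 0.13 (95% interval -0.20 to 0.45, limma adjusted p = 0.697). H2-T23, which encodes Qa-1, a ligand of natural killer cell receptors, was at 8.83, 10.7 and 5.61 RPM in young and at 7.68, 9.08 and 12.2 RPM in aged libraries (log2 fold change 0.20, 95% interval -0.30 to 0.70, limma adjusted p = 0.684). Its sign turned without young replicate 3 (-0.029), with array weights (-0.0069) and with the neutrophil score (-0.089). Tap1, the partner of Tap2, was at 5.83, 5.58 and 3.89 RPM in young and at 3.603, 4.84 and 4.44 RPM in aged libraries.

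The immunoproteasome subunits Psmb8 and Psmb9 replace the catalytic subunits Psmb5 and Psmb6 of the constitutive proteasome. Psmb8 was at 5.52, 6.89 and 6.05 RPM in young and at 5.17, 9.29 and 9.02 RPM in aged libraries. Psmb9 was at 3.62, 2.95 and 4.03 RPM in young and at 3.13, 4.34 and 7.62 RPM in aged libraries. Aged replicate 1 had the lowest Psmb8 value of the 6 libraries and lay within the young range for Psmb9, while aged replicate 3 was the highest for Psmb9. At 1 RPM the limma adjusted p was 0.626 for Psmb8, 0.595 for Psmb9 and 0.759 for Tap1.

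**Figure D2:**
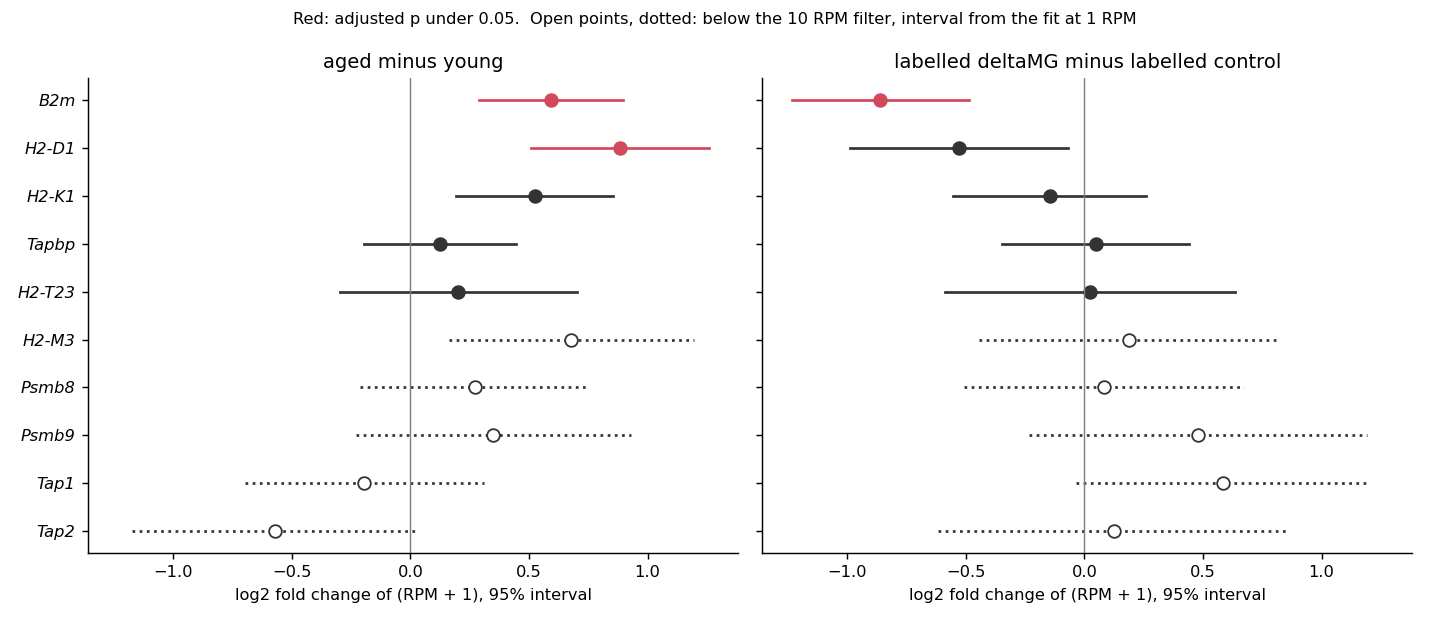
Log2 fold change of RPM + 1 (horizontal axis) with its 95% interval for each class I gene, aged minus young on the left and labelled deltaMG minus labelled control on the right; red marks a limma adjusted p under 0.05, and open points with dotted lines are genes below 10 RPM with the interval from the fit at 1 RPM. H2-D1 (0.88) and B2m (0.59) are red on the left and B2m (-0.86) on the right.

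The second comparison set the libraries labelled Rab7 deltaMG against their labelled controls. B2m was lower in the libraries labelled deltaMG, and no other tested member was called. H2-D1 had a difference in the same direction that missed the threshold, and H2-K1, Tapbp and H2-T23 were not called either. The 1 of 5 tested members called lower stands beside a background in which limma called 3.78% of all tested genes, 1.2% higher and 2.58% lower. That background of 157 genes became 25 and 71 without labelled control replicate 1 and 2, 59 and 86 without labelled deltaMG replicate 1 and 2, 317 without aged replicate 3, and 510 with the groups of this experiment alone. The median log2 fold change was -0.15 over the 5 tested members and 0.065 over all 10, against -0.016 over all tested genes.

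B2m was at 1546 and 1360 RPM in labelled control libraries and at 703 and 906 RPM in those labelled deltaMG. Both labelled control values were above every other library of the series, the young and aged ones included. The means were 1453 RPM ± 131 and 804 RPM ± 144 (SD, n = 2 each), a 1.82-fold difference at a log2 fold change of -0.86 (standard error 0.17, limma adjusted p = 0.0113.) The call was not kept without labelled control replicate 1 (limma adjusted p = 0.199), labelled control replicate 2 (0.0524) or labelled deltaMG replicate 1 (0.155). In these fits the lone library of a group is assumed to vary like the other groups. With the neutrophil score as covariate the log2 fold change was -1.02 and the call was kept. In that fit the median of all tested genes was -0.13, against -0.016 without the score. The neutrophil sums of these 2 groups were apart, so the score cannot be fully separated from the label. The monocyte and border macrophage sums given above were also higher in both libraries labelled deltaMG, and their part was not tested.

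H2-D1 was at 128.5 and 111.3 RPM in labelled control libraries and at 76.6 and 89.1 RPM in those labelled deltaMG. The ranges were apart, and the log2 fold change was -0.53 (95% interval -0.99 to -0.068, limma adjusted p = 0.196). With the 4 libraries of this experiment fitted alone the adjusted p was 0.0191, and with the neutrophil score as covariate the log2 fold change was -0.98 (limma adjusted p = 0.000898), so the call depends on the fit. H2-K1 was at 89.3 and 72.8 RPM in labelled control libraries and at 63.7 and 83.0 RPM in those labelled deltaMG. These ranges overlapped, and the log2 fold change of -0.15 (95% interval -0.55 to 0.26, limma adjusted p = 0.747) became 0.042 without labelled deltaMG replicate 1.

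Of all 10 members, 4 had ranges apart between these groups, and 2 of the 5 tested ones. That is no more than the background, since 51.8% of tested genes (25.2% higher and 26.6% lower) and 45.5% of genes of at least 1 RPM had ranges apart with 2 libraries on each side. Besides B2m and H2-D1, these were the head-to-head neighbours Tap1 and Psmb9, in the opposite direction. Tap1 was at 4.46 and 2.82 RPM in labelled control libraries and at 5.50 and 6.22 RPM in those labelled deltaMG. Psmb9 was at 3.27 and 3.10 RPM and at 3.70 and 6.22 RPM. At 1 RPM the limma adjusted p was 0.427 for Tap1 and 0.626 for Psmb9, and B2m was the 1 of 10 members called, against 1.69% of all genes in that fit.

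The other members overlapped between the libraries labelled control and deltaMG. Tapbp was at 23.6 and 23.1 RPM against 22.2 and 26.3 RPM, with a 95% interval of the log2 fold change from -0.35 to 0.44. H2-T23 was at 11.9 and 12.3 RPM against 11.1 and 13.6 RPM, with an interval from -0.59 to 0.64. These intervals hold changes as large as that of H2-D1 in either direction for H2-T23, so a difference of that size was not detectable for it. H2-M3 was at 7.28 and 5.92 RPM against 6.93 and 8.39 RPM, and Psmb8 at 8.32 and 8.04 RPM against 7.17 and 10.6 RPM. Tap2 was at 1.49 and 1.83 RPM against 2.63 and 1.30 RPM.

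**Figure D3:**
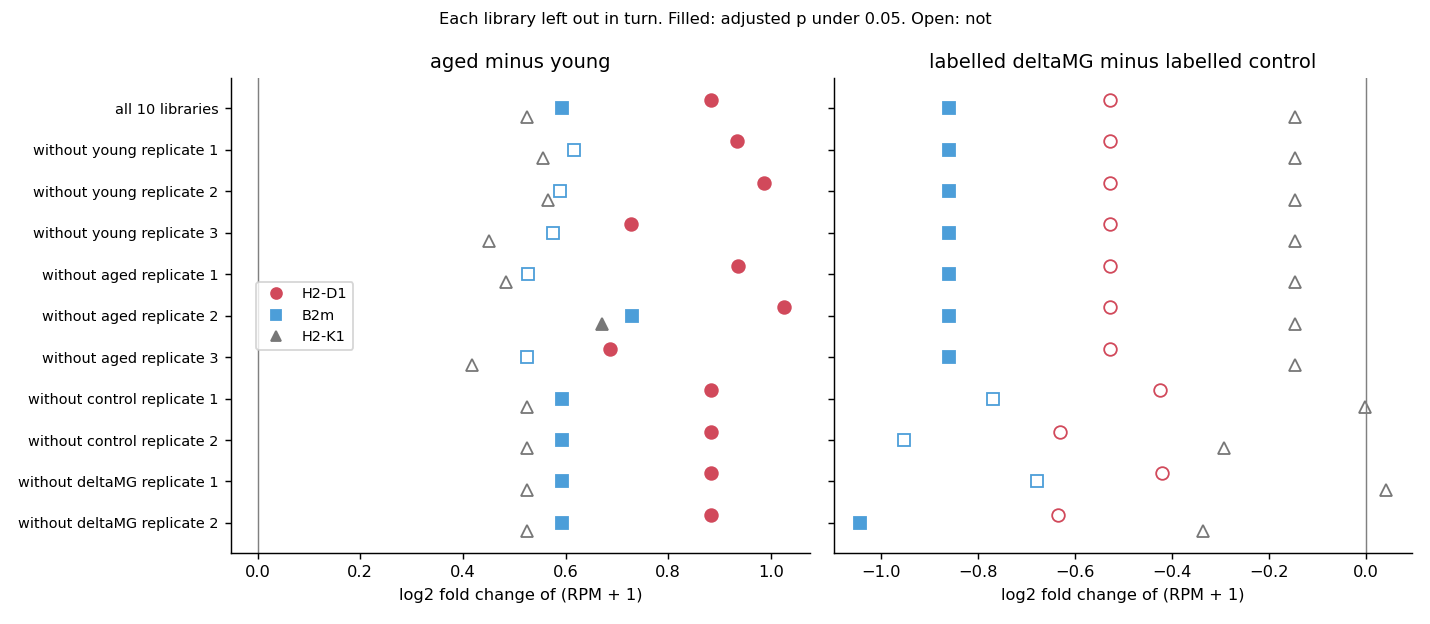
Log2 fold change of RPM + 1 (horizontal axis) of H2-D1, B2m and H2-K1 with all 10 libraries and with each library left out in turn (vertical axis), aged minus young on the left and labelled deltaMG minus labelled control on the right; filled symbols have a limma adjusted p under 0.05. H2-D1 stays filled in every row on the left, from 0.69 to 1.02, while B2m is open in 5 of them there and in 3 on the right.

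The test of whether the members moved differently in the ageing and Rab7 experiments, which share no library, called H2-D1 and B2m. The log2 fold change of B2m in the Rab7 experiment was lower than that in ageing by 1.45 (difference -1.45, standard error 0.23, limma adjusted p = 0.00149), and it kept its call under every alternative tried. The difference was -1.41 for H2-D1 (standard error 0.28, limma adjusted p = 0.00754), with an adjusted p of 0.0762 without labelled control replicate 1. H2-K1 had -0.67 (limma adjusted p = 0.145), H2-T23 -0.18 and Tapbp -0.078. The 2 of 5 tested members called here compare with 4.79% of all tested genes (2.12% higher, 2.67% lower). These 199 genes became 71 and 114 without labelled control replicate 1 and 2, 102 without labelled deltaMG replicate 2 and 132 without young replicate 1. The fit at 1 RPM also called 2 of the 10, against 1.9% of its genes. The median was -0.67 over the tested members against 0.020 over all tested genes.

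The amount of each heavy chain relative to the other was followed as a ratio within a library, chosen after the values were seen. An exact permutation test of it gave p = 0.1 in ageing and 0.333 in the Rab7 experiment. Adjusted over 10 ratio comparisons these were 0.5 and 0.556 (Benjamini-Hochberg). With 3 against 3 and 2 against 2 libraries that test cannot give smaller p-values, so it cannot decide. The ratio of H2-D1 to H2-K1 RPM was 1.01, 1.07 and 0.872 in young and 1.11, 1.27 and 1.43 in aged libraries. It was 1.44 and 1.53 in the libraries labelled control and 1.20 and 1.07 in those labelled deltaMG. The ranges were apart in both comparisons, and the libraries labelled control were the highest of all. Between the labelled control and deltaMG libraries, 51.8% of tested genes had ranges apart as well, and 23.9% did in ageing. The ratio is not per length, so only its change between groups can be read. The near copies of class I sequence set a limit here: of 50-base windows of the longest transcript, 14.3% in H2-D1 and 8.11% in H2-K1 also occur in other annotated genes, and how the authors assigned such reads is not given in the sources used here.

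The ratio of B2m to the sum of H2-K1 and H2-D1 was 5.10 to 6.51 in young and 4.60 to 5.79 in aged libraries, with overlap. It was 7.09 and 7.39 in the libraries labelled control, above all other libraries, and 5.01 and 5.26 in those labelled deltaMG. B2m shared no 50-base window with another gene. The ratio of Psmb9 to Psmb6 was 0.821 to 1.56 in young and 2.00 to 4.29 in aged libraries, and 1.22 to 1.37 in labelled control against 2.21 to 3.07 in labelled deltaMG libraries. Psmb6 had only 10 to 28 reads per library, so these ratios rest on little data. Psmb6 was at 4.41, 2.13 and 2.59 RPM in young and at 1.57, 1.51 and 1.78 RPM in aged libraries. It was at 2.38 and 2.54 RPM in labelled control and at 1.67 and 2.03 RPM in labelled deltaMG libraries. The ratio therefore does not follow Psmb9 alone. Its exact permutation p was the smallest possible, 0.1 in ageing and 0.333 in the Rab7 experiment (Benjamini-Hochberg adjusted 0.5 and 0.556), so it cannot decide. The ratio of Psmb8 to Psmb5 was 1.40 to 2.33 in young and 1.74 to 6.13 in aged libraries, and its ranges overlapped in both comparisons.

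**Figure D4:**
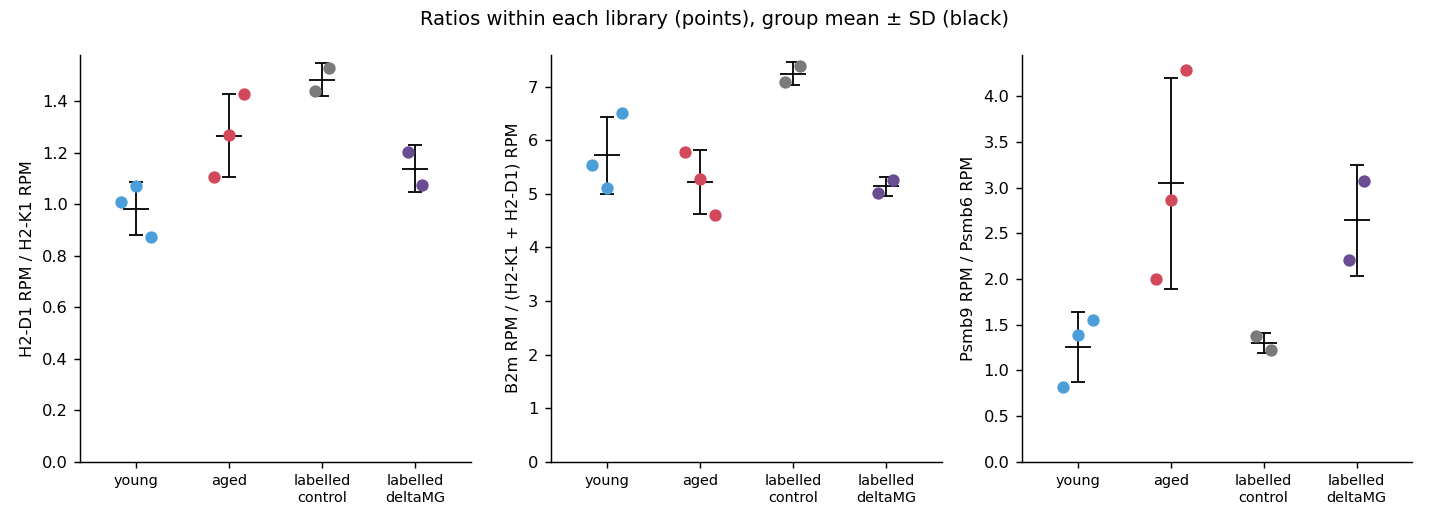
Ratios of RPM within each library (vertical axes, starting at 0) by group: H2-D1 to H2-K1, B2m to the sum of H2-K1 and H2-D1, and Psmb9 to Psmb6; points are libraries and black marks the group mean ± SD. The H2-D1 to H2-K1 ratio is highest in the libraries labelled control (1.44 and 1.53). The Psmb9 to Psmb6 ratio, when rounded, is at or above 2.00 in all aged and labelled deltaMG libraries. Psmb6 had 10 to 28 reads per library and was lower in these libraries.

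Over the 10 libraries, the 3 most abundant members moved most closely together, as a description over libraries that share their group structure. Pearson's r of log2(RPM + 1) was 0.93 between H2-K1 and H2-D1, 0.89 between H2-D1 and B2m and 0.82 between H2-K1 and B2m. Of the 45 pairs 32 were positive, and the lowest was Tap2 with H2-M3 at -0.69. The genes outside the set whose values followed the mean of the tested members most closely were Rab32 (r = 0.95), a small GTPase of lysosome-related organelles, the ferritin light chain Ftl1 (0.94), the Fc receptor chain Fcer1g (0.93), Coa5 (0.92), an assembly factor of cytochrome oxidase, and the protease Ctsc (0.92).

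The other heavy chains were mostly near 0. Of 30 nonclassical and class I-like genes listed, 2 were tested and neither was called in either comparison. Hfe, which regulates iron uptake, was at 14.9 RPM ± 3.03 in young and 9.74 RPM ± 2.25 in aged libraries (SD, n = 3 each; log2 fold change -0.57, limma adjusted p = 0.177). H2-T24 was at 9.59 RPM ± 1.49 and 11.3 RPM ± 1.13 (SD, n = 3 each; log2 fold change 0.23, limma adjusted p = 0.547).

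Of 15 partners in loading and trimming, 13 were tested and none was called in either comparison. Their median log2 fold change was 0.10 in ageing and -0.13 in the Rab7 experiment, where 2 of 13 values were positive against 48.0% of all tested genes. Erap1, which trims peptides in the endoplasmic reticulum, was at 10.6 RPM ± 2.04 in young and 14.2 RPM ± 1.27 in aged libraries (SD, n = 3 each; log2 fold change 0.41, limma adjusted p = 0.232). Ide, a cytosolic peptidase, had 0.48 (limma adjusted p = 0.272). The chaperone calnexin, Canx, was at 156 RPM ± 28.8 in labelled control and 106 RPM ± 13.1 in labelled deltaMG libraries (SD, n = 2 each; log2 fold change -0.54, limma adjusted p = 0.102). Calreticulin, Calr, had -0.48 (limma adjusted p = 0.188).

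Among the other immunoproteasome and activator genes, 5 of 7 were tested and none was called in either comparison. The assembly factor Pomp had a log2 fold change of 0.40 in aged libraries (limma adjusted p = 0.247), and the activator subunit Psme1 had 0.17 in ageing and -0.26 in the Rab7 experiment (limma adjusted p = 0.591 and 0.519). Psme2, the partner of Psme1, was at no more than 0.635 RPM, while its near copy Psme2b was at 24.9 to 38.9 RPM, so the assignment of their reads is uncertain. Psmb10, the remaining immunoproteasome subunit, was at 1.41 to 3.31 RPM. None of the 14 constitutive subunits reached the level for testing, and no conclusion on their change can be drawn.

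Of 26 regulators of the pathway, 17 were tested, beside 6.14% of all tested genes called in ageing and 3.78% in the Rab7 experiment. Ifngr1, the ligand-binding chain of the interferon gamma receptor, was the only one called. It was at 69.5 and 68.1 RPM in labelled control libraries and at 96.1 and 119 RPM in those labelled deltaMG, a rise at a log2 fold change of 0.63 (standard error 0.15, limma adjusted p = 0.0330.) The call was not kept without labelled control replicate 1 (log2 fold change 0.65), labelled control replicate 2 (0.62) or labelled deltaMG replicate 2 (0.48). Nor was it kept with no filter on low values (limma adjusted p = 0.107), the replicate block (0.134) or a prior variance without trend (0.0770). It was kept with the neutrophil score (log2 fold change 0.67, limma adjusted p = 0.0376). The part of the monocyte and border macrophage sums, higher in both libraries labelled deltaMG, was not tested for Ifngr1. In the ageing experiment Ifngr1 was at 103, 88.2 and 90.4 RPM in young and at 66.7, 74.7 and 71.7 RPM in aged libraries, apart but above the threshold (log2 fold change -0.39, limma adjusted p = 0.0719). The signs of Ifngr1 in both comparisons were thus opposite to those of B2m, and its own difference between experiments was called (1.03, limma adjusted p = 0.00581). Nfkb1, a subunit of the factor NF-kappa B, had -0.35 in ageing (limma adjusted p = 0.165). Nlrc5, the class I transactivator, was at 0.576 to 2.68 RPM in young and at 3.29, 9.19 and 3.43 RPM in aged libraries and was not tested. The interferon gamma gene Ifng itself was at the table's constant in 8 of the 10 libraries.

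Of 11 receptors listed 3 were tested, and 2 of these were called higher in aged libraries, where limma called 3.16% of all tested genes higher. Pirb, an inhibitory receptor that binds class I, was at 5.99, 7.05 and 5.61 RPM in young and at 17.7, 16.9 and 35.4 RPM in aged libraries, a 3.20-fold rise (limma adjusted p = 0.00107). Lilrb4a, an inhibitory receptor of the same family whose binding to class I is less certain, was at 18.0, 26.6 and 12.95 RPM in young and at 54.0, 30.3 and 72.0 RPM in aged libraries, a 2.58-fold rise (limma adjusted p = 0.0179). Its call was not kept without young replicate 1 or 3 or aged replicate 1 (limma adjusted p = 0.0692, 0.0717 and 0.0657). The Lilrb4a call was also lost with no filter on low values (0.0748), the replicate block (0.0695) and a robust prior (0.0957). The neutrophil sums of the aged replicates 1 to 3, at 1838, 1084 and 4821 RPM, had the same order as the Lilrb4a values. Monocyte sums (285, 198 and 835 RPM) and border macrophage sums (55.6, 33.9 and 86.5 RPM) had that order too. Their part was not tested. With the neutrophil score the fold changes on the log2 scale were 1.24 for Pirb (1.68 without it) and 0.76 for Lilrb4a (1.37). Both calls were kept. Lag3, listed with the receptors although its main ligand is class II, was at 64.5 and 62.6 RPM in labelled control libraries and at 23.4 and 24.4 RPM in those labelled deltaMG, and fell 2.59-fold (limma adjusted p = 0.000158). In the ageing experiment all 6 libraries had Lag3 at 22.6 to 27.1 RPM, so the libraries labelled control stood apart from all others, as they did for B2m.

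Of 24 interferon response genes 6 were tested and 3 were called higher in aged libraries, where limma called 3.16% of all tested genes higher. Of the 6, 5 had positive values and 1, Gbp7, a negative one (log2 fold change -0.32, limma adjusted p = 0.199). Ifi204, a DNA sensor, was at 4.89, 6.07 and 3.74 RPM in young and at 15.98, 19.1 and 18.2 RPM in aged libraries, a 3.21-fold rise (limma adjusted p = 0.000492). It reached 10 RPM in aged libraries only, so it entered the test through the group where it was high. Its call was kept with a lower filter and with none. Ifitm3, a membrane protein against virus entry, rose 2.90-fold (limma adjusted p = 0.00238), and Oasl2 rose 2.62-fold (limma adjusted p = 0.0180; 0.0514 without young replicate 3). In the libraries labelled deltaMG, Ifitm3 was called higher, at 26.9 and 23.001 RPM against 9.96 and 11.7 RPM (log2 fold change 1.13, limma adjusted p = 0.0479). That call was lost in 13 of 25 alternatives. It was lost without any of the 4 libraries of the Rab7 experiment (log2 fold change 1.02 to 1.24). It was also lost without young replicate 1 (limma adjusted p = 0.0693) or aged replicate 1 (0.0524). The neutrophil score (0.255), no filter on low values (0.186), a pseudocount of 10 (0.109) and the replicate block (0.143) lost it too. So did a prior variance without trend (0.0878), a robust prior (0.0675) and voom (0.130). Monocyte and border macrophage sums were higher in both libraries labelled deltaMG, and their part in Ifitm3 was not tested.

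**Figure D5:**
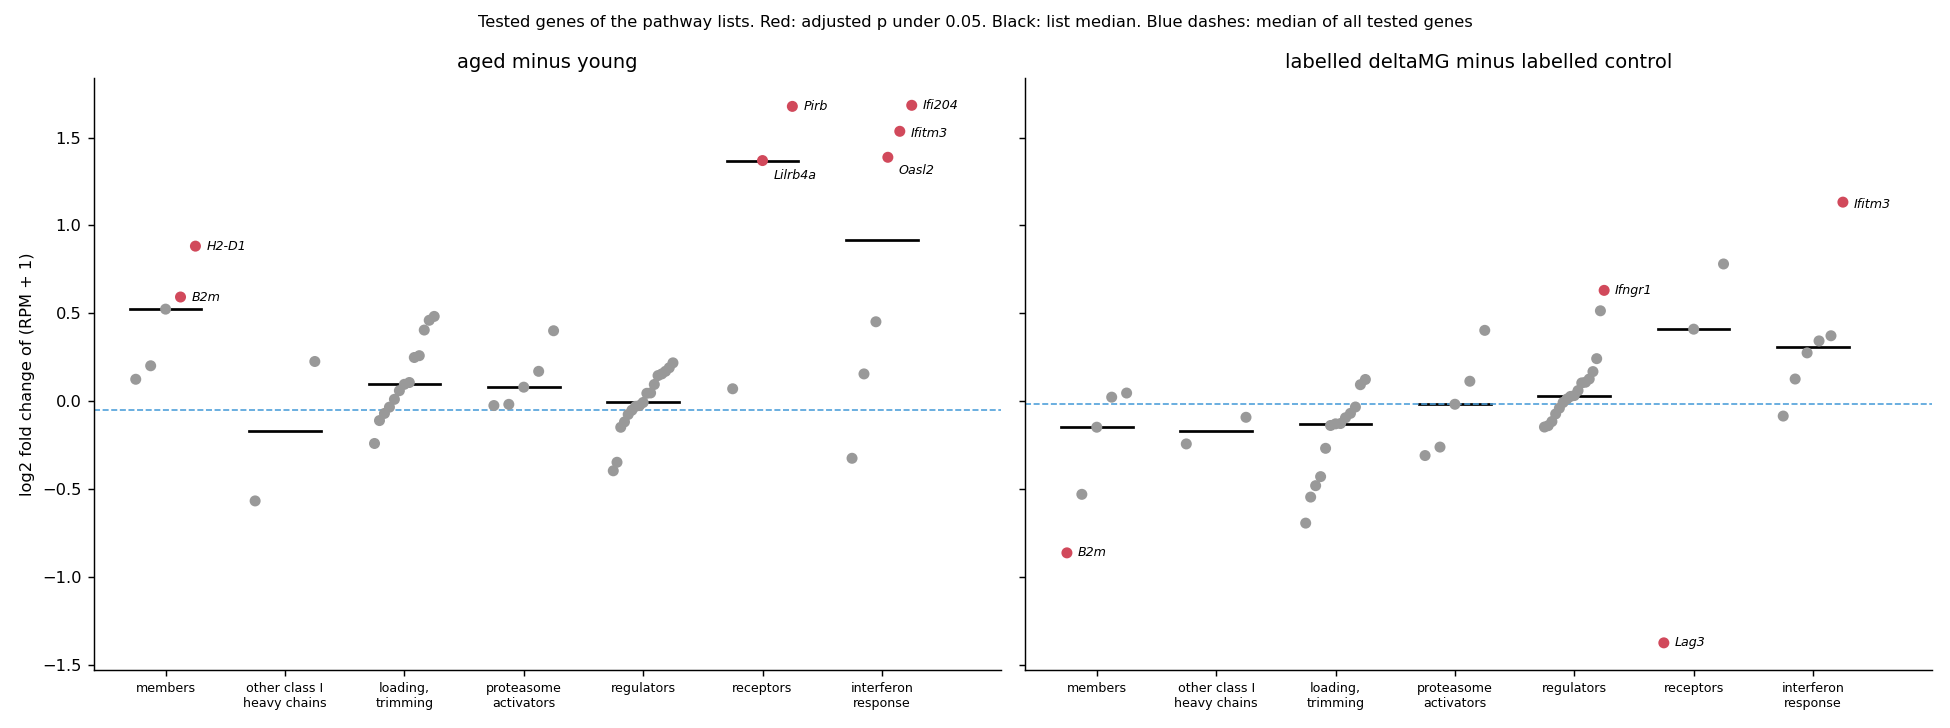
Log2 fold change of RPM + 1 (vertical axis) of each tested gene of the class I set and of 6 related gene lists, aged minus young on the left and labelled deltaMG minus labelled control on the right; red points have a limma adjusted p under 0.05, black bars are list medians and the dashed line is the median of all tested genes. The called points on the left are H2-D1, B2m, Pirb, Lilrb4a, Ifi204, Ifitm3 and Oasl2, all above 0, and on the right B2m and Lag3 lie below 0 and Ifngr1 and Ifitm3 above it.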

How the data were processed

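Per the labels' protocols, RNA of bead-isolated microglia was amplified and made into Ion libraries. GRCm38, mm10 and FastQC are named in the submitters' processing notes. For the aligner, counter, annotation, strand setting and scaling the answer is not given in the sources used here. The unit of the deposited table was taken to be RPM, since low values in each library were whole multiples of a step of 0.101 to 0.164 RPM above a constant of 0.0001. Up to 500 reads, 94.4% to 94.7% of values were within 0.05 of a whole read. Whole reads could not be recovered for all genes, so no count model was used, and depths are those behind the scaling.

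The 4151 genes that reached 10 RPM in 2 or more libraries were fitted as log2(RPM + 1) with limma 3.58.1 in R 4.3.3, with 4 groups sharing 1 spread, 6 residual degrees of freedom and a trended prior variance. Calls were made at a Benjamini-Hochberg adjusted p under 0.05 over all tested genes, for aged against young, for labelled deltaMG against labelled control, and for the difference of the 2 effects. All 10 members and Rab7 were named, and from each other list every called gene up to 4, or the 2 with the smallest p; other names were chosen after their values were seen. The 5 genes most like the members were taken by Pearson's r. The members and lists were chosen with earlier results of these data known.

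Without the strand setting it is unknown whether reads of genes that overlap on opposite strands were told apart. Tap1 and Psmb9 share 212 exon bases. Antisense transcripts cover 24.9% of the exon bases of Tapbp, 14.1% of those of Tap2 and 14.7% of those of Psmb8. Of 50-base windows, 21.0% in Tapbp, 16.0% in H2-T23 and 12.6% in Tap2 also occur in other genes. No replicate pair was a copy, with at most 1 of 4151 genes at the same value in any pair. On simulated data with 14579 genes the fit called 95% of 2-fold changes in ageing and 90% in the Rab7 comparison, with 8 false among 203 calls and 12 false among 200. These calls included 4-fold changes. Only genes well above the 10 RPM filter were changed, and each gene varied on its own. The rates therefore do not cover weakly expressed members, changes under 2-fold or differences of sex and cell types shared by many genes. Promoter motifs and alignments used Biopython 1.88. The alternatives covered the filter, pseudocount, scaling, which libraries enter, a block for the replicate number, the prior variance, array weights, voom on estimated reads, neutrophil score, threshold and leaving out each library.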

Additional observations from a re-analysis of the deposited data

Results flagged for a closer look

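The fold change between libraries labelled deltaMG and labelled control differed from that between aged and young libraries for 5 of the genes named, by limma's test of the difference itself. The differences on the log2 scale were -1.45 for B2m (limma adjusted p = 0.00149) and -1.41 for H2-D1 (0.00754), the light chain and a classical heavy chain. Among the related genes they were 1.03 for Ifngr1 (0.00581), -1.77 for Ifi204 (0.00714) and -1.44 for Lag3 (0.000676). Ifi204 reached 10 RPM in aged libraries only, so it was tested through the group where it was high. The call of Ifi204 was lost without labelled control replicate 1 or labelled deltaMG replicate 2 (limma adjusted p = 0.0566 and 0.0552). The part that the sex of the animals, the neutrophil sums and the separate experiments have in these differences was not tested, apart from the fit with the neutrophil score, in which all 5 kept their calls.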

How the results depend on the processing

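The number of members called, 2 in ageing and 1 in the Rab7 comparison, moved to 1 and 0 with no filter on low values, to 0 and 0 with the replicate number as a block, and to 1 and 2 with the neutrophil score. It was 1 in ageing with a prior variance without trend, and 2 in the Rab7 comparison with its own groups only. Leaving out single libraries gave 1 to 3 members in ageing, 0 to 1 in the Rab7 comparison and 1 to 3 for the difference between experiments, where the block gave 1. The median of the tested members in the Rab7 comparison was -0.53 for genes of at least 50 RPM, where fewer members are tested, and -0.42 with the neutrophil score; for the difference between experiments it was -0.18 at a minimum of 1 RPM or with no filter, where all 10 enter, and -1.41 at 50 RPM. With the replicate block the adjusted p was 0.0660 for H2-D1 and 0.112 for B2m in ageing, 0.0780 for B2m in the Rab7 comparison and 0.0561 for H2-D1 in the difference. Deviations of same-numbered young and aged libraries correlated at -0.14, -0.24 and -0.39, so those numbers did not pair the samples. In the Rab7 experiment the correlation was 0.12 for same-numbered and -0.12 for other pairs, which with 2 libraries a group mirror each other, and the labels give no shared source. The losses in ageing are not read as weaker effects. In the Rab7 experiment this check cannot decide on pairing, so the losses of B2m there and of H2-D1 in the difference stand. The number of all genes called, against which members are read, ranged over the alternatives from 66 (block) to 445 (adjusted p under 0.10) in ageing, from 25 (without labelled control replicate 1) to 510 (own groups only) in the Rab7 comparison and from 71 (without labelled control replicate 1) to 460 (neutrophil score) for the difference. H2-K1 in ageing passed with median-of-ratios scaling (limma adjusted p = 0.0117), equal totals (0.0137), quantile normalization (0.0194), a 50 RPM minimum (0.0412), a robust prior (0.0416) and array weights (0.0345).

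Signs turned for values near 0. With the neutrophil score they were -0.089 for H2-T23 and -0.070 for Rab7 in ageing, and -0.38 for H2-T23, -0.032 for Tapbp and -0.19 for Rab7 in the Rab7 comparison. With array weights H2-T23 was at -0.0069 in ageing and at 0.031 in the difference. With single libraries left out, H2-T23 was between -0.029 and 0.38 in ageing, between -0.11 and 0.16 in the Rab7 comparison and between -0.36 and 0.053 in the difference. Tapbp was between -0.070 and 0.16 in the Rab7 comparison and between -0.20 and 0.046 in the difference, and H2-K1 between -0.34 and 0.042 in the Rab7 comparison. Rab7 was between -0.017 and 0.36 in ageing, Hfe between -0.64 and 0.16 in the Rab7 comparison and between -0.075 and 0.72 in the difference, and H2-T24 between -0.21 and 0.027 in the Rab7 comparison. The cause was not tested. Reads limit the low genes: at 7 to 60 reads for Tap1, Tap2 and Psmb9, changes of the size seen for H2-D1 lie within their intervals in at least 1 comparison each.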
